A study of Mus musculus with 8 samples.

Results

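The genes described here are 36 genes of the p53 pathway, chosen by symbol from a list of p53 itself, its family member *Trp73*, its regulators and genes that p53 is known to activate. All 36 were found among the 23420 gene symbols of the RNA-seq tables and all had counts, so none was lost before testing. RNA-seq was performed on IPO13+/+ and IPO13-/- mouse embryonic stem cells (mESCs) to ask which genes depend on IPO13 when cells meet oxidative stress. IPO13 is an importin-beta family receptor that carries proteins into and out of the nucleus. The 8 libraries form 4 groups of 2. One group is IPO13+/+ cells without treatment (labelled wild type), and the second is IPO13+/+ cells exposed to 125 µM H2O2 for 1 h and then left for 2 h in clean medium. The other groups are IPO13-/- cells without treatment and IPO13-/- cells given the same exposure and recovery. Both genotypes have the strain background 129 x C57BL/6, derive from day 5 preimplantation blastocysts and were grown on gelatin without feeder cells in medium with LIF. The labels and Methods do not state how many clones represent each genotype, nor that the 2 libraries of a group came from separate cultures, so p-values measure the spread between these libraries, which may be technical, and a difference between genotypes cannot be told apart from one between cell lines.

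p53 is a transcription factor whose protein is kept scarce by the ubiquitin ligase Mdm2 and its partner Mdm4, and is stabilised and activated when DNA is damaged, as happens when cells are exposed to H2O2. Active p53 switches on genes that arrest the cell cycle, repair DNA or start cell death, and it also switches on its own inhibitors, which returns the pathway to rest. Because control lies largely at the protein, the RNA of *Trp53* can stay level while the RNA of its targets moves.

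Between 60397877 and 73789079 reads were counted on genes per library, and 3 counts, taken as the least that can be told from 0 by counting error alone, equal 0.0407 to 0.0497 CPM, a unit that scales each count to its library's total. *Ipo13* had 4716 and 4786 counts before and 4928 and 4791 after treatment in IPO13+/+ libraries, against 1965 and 1555 before and 1610 and 1604 after treatment in IPO13-/- libraries. Its RNA was thus lower in every IPO13-/- library, by a log2 fold change of -1.44 ± 0.05 (SE) in untreated cells (FDR 9.5e-19) and -1.48 ± 0.05 in treated cells (FDR 6.9e-19), and reads of the gene remained. All 10 stem cell markers examined exceeded 1 CPM in every library, and their summed level, as plain CPM, was 7550 to 7750 and 7480 to 7490 CPM in untreated and treated IPO13+/+ libraries and 6800 to 6920 and 6710 to 6820 CPM in IPO13-/- libraries. Markers of fibroblasts summed to 6.61 to 9.43 CPM, of primitive endoderm to 15 to 21.9 CPM and of trophectoderm to 11.4 to 23 CPM, and none of these markers was at 0 in all libraries. In bulk RNA, fewer cells of a type and less RNA per cell cannot be told apart. Levels below are CPM after scaling by TMM factors, with the SD of 2 libraries, and tests are edgeR's quasi-likelihood tests with Benjamini-Hochberg FDR over the 19424 genes with a count. An exact permutation test of 2 against 2 libraries cannot go below a two-sided p of 0.333, so no such test is given.

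After H2O2, most of the 36 genes rose in both genotypes. In IPO13+/+ cells 31 of 36 rose at an FDR under 0.05, where 11.5% of all tested genes did, and 11 of them rose at least 2-fold, where 2.75% of all genes did. In IPO13-/- cells 30 of 36 rose, against 14.9% of all genes, and 14 rose at least 2-fold, against 2.52%. No member fell in IPO13+/+ cells by edgeR, limma-voom or DESeq2, where 13.8% of all genes fell, and 1 member (*Sesn1*) was lower at an unadjusted p under 0.05. In IPO13-/- cells *Rrm2b* alone fell, against 14.4% of all genes. The 30 genes that rose in IPO13-/- cells also rose in IPO13+/+ cells, and the share of all tested genes that rose in both was not counted. Over the 36 genes, log2 fold changes had a median of 0.67 in IPO13+/+ and of 0.87 in IPO13-/- cells, where the median of all genes was 0 each time. Among the 12198 genes above a mean of 1 CPM, which include 35 of the 36, 15.1% rose in IPO13+/+ and 20.8% in IPO13-/- cells.

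**Figure D1:**
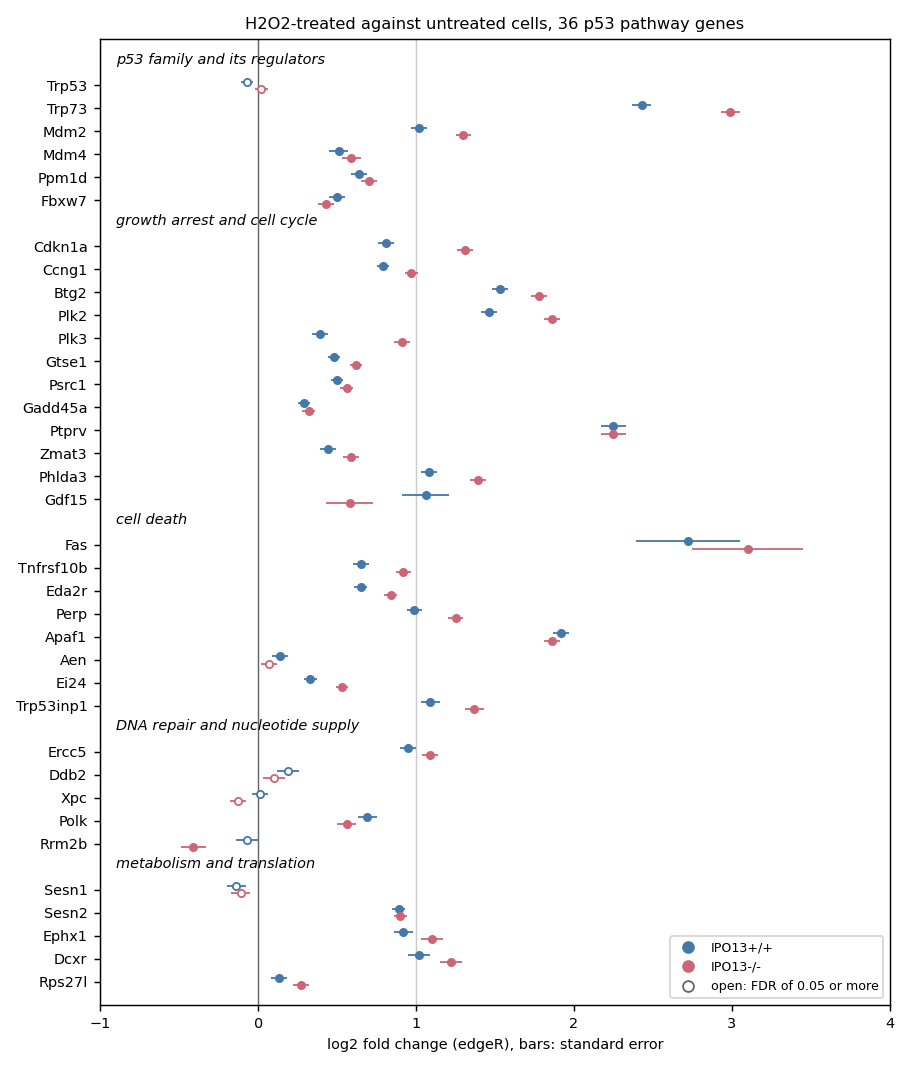
Log2 fold change (edgeR, bars are standard errors) of each of the 36 genes in H2O2-treated against untreated cells, in IPO13+/+ (blue) and IPO13-/- (red) cells, grouped by role; open points have an FDR of 0.05 or more. Most points lie to the right of 0 in both genotypes, with *Fas*, *Trp73*, *Ptprv* and *Apaf1* farthest right and *Trp53*, *Sesn1*, *Xpc*, *Ddb2* and *Rrm2b* near or left of 0.

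Of the 6 genes of the p53 family and its regulators, 5 rose in each genotype, and *Trp53* did not pass the test. *Trp53* RNA measured 428.6 and 406.7 CPM in untreated and 405.3 and 392.8 CPM in treated IPO13+/+ libraries, and 391.2 and 401.1 CPM in untreated and 395.0 and 406.6 CPM in treated IPO13-/- libraries. The libraries of all 4 groups lie close together, with log2 fold changes after H2O2 of -0.07 ± 0.04 in IPO13+/+ (FDR 0.26) and 0.02 ± 0.04 in IPO13-/- cells (FDR 0.82). Per length of exons, *Trp53* ranked second of the 36 genes in untreated IPO13+/+ cells at 103 RPKM, which divides CPM by exon length in kilobases, below *Rps27l* at 294 RPKM.

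*Trp73* (chr4:154056253-154140208, minus strand, GRCm38) encodes p73, a p53 relative that binds similar DNA sites. It measured 10.24 and 9.892 CPM in untreated IPO13+/+ libraries and 55.06 and 53.68 CPM in treated ones. In IPO13-/- libraries it measured 4.82 and 4.881 CPM untreated and 39.41 and 37.42 CPM treated. The 4 groups do not overlap, and both genotypes rose several-fold, 5.40-fold in IPO13+/+ (log2 2.43 ± 0.06, FDR 1.3e-21) and 7.92-fold in IPO13-/- cells (log2 2.99 ± 0.06, FDR 2e-22). Counts per gene do not separate its long and short transcripts. *Mdm2* (chr10:117688875-117710758, minus strand), the chief inhibitor of p53 and one of its targets, measured 173.3 and 155.9 CPM untreated and 329.8 and 338.1 CPM treated in IPO13+/+, and 120.1 and 117.7 CPM untreated and 302.4 and 284.7 CPM treated in IPO13-/- libraries. It rose 2.03-fold in IPO13+/+ and 2.47-fold in IPO13-/- cells. *Mdm4*, the partner of Mdm2, *Ppm1d*, a phosphatase that dampens p53 signalling, and *Fbxw7*, the substrate receptor of a ubiquitin ligase, rose less, with log2 fold changes between 0.43 and 0.70 in the 2 genotypes.

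All 12 genes of growth arrest and the cell cycle rose in both genotypes. *Cdkn1a* (chr17:29090976-29100727, plus strand) encodes p21, the inhibitor of cyclin-dependent kinases that halts the cycle downstream of p53. It measured 45.19 and 45.01 CPM in untreated and 79.6 and 78.64 CPM in treated IPO13+/+ libraries, and 19.99 and 22.18 CPM in untreated and 52.08 and 52.0 CPM in treated IPO13-/- libraries. Treated IPO13-/- cells therefore stood above untreated IPO13+/+ cells but below treated ones. The rise was 1.75-fold in IPO13+/+ (log2 0.81 ± 0.05, FDR 2e-13) and 2.47-fold in IPO13-/- cells (log2 1.31 ± 0.05, FDR 3.8e-17). *Ptprv*, a receptor-type tyrosine phosphatase known as a p53 target in mouse, rose by the same log2 fold change of 2.25 ± 0.08 in both, from 6.006 and 5.167 to 26.59 and 26.51 CPM in IPO13+/+ and from 4.635 and 3.689 to 20.56 and 19.5 CPM in IPO13-/- libraries.

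*Plk2* and *Plk3*, polo-like kinases induced by stress, differed in the size of their rise. *Plk2* (chr13:110395046-110400844, plus strand) went from 49.32 and 45.63 to 129.4 and 131.2 CPM in IPO13+/+ and from 25.58 and 24.82 to 93.39 and 89.83 CPM in IPO13-/- libraries, a rise of 2.74-fold and 3.63-fold. *Plk3* (chr4:117128655-117133963, minus strand) went from 65.87 and 62.24 to 85.23 and 82.89 CPM and from 51.75 and 48.66 to 100.8 and 88.38 CPM, a rise of 1.31-fold and 1.88-fold. *Plk3* was the one member whose IPO13-/- libraries lay below the IPO13+/+ libraries before treatment and above them after it. *Btg2*, an antiproliferative protein that acts on RNA decay, rose 2.90-fold and 3.43-fold, from 38.84 and 38.05 to 109.2 and 113.4 CPM in IPO13+/+ and from 26.99 and 28.4 to 96.8 and 93.08 CPM in IPO13-/- libraries.

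*Phlda3*, an inhibitor of Akt signalling, rose by 1.08 ± 0.05 and 1.39 ± 0.05 on the log2 scale in IPO13+/+ and IPO13-/- cells, and *Ccng1*, cyclin G1, by 0.79 ± 0.04 and 0.97 ± 0.04. Smaller rises, of 0.29 to 0.62, were found for *Zmat3*, an RNA-binding protein, the microtubule-associated *Gtse1* and *Psrc1*, and *Gadd45a*, a damage-inducible stress sensor. *Gdf15*, a secreted stress cytokine, was low: IPO13+/+ libraries held 74 and 87 counts before and 155 and 181 counts after H2O2, and IPO13-/- libraries 88 and 91 before and 141 and 105 after. It rose by 1.06 ± 0.15 and 0.58 ± 0.15, and its IPO13-/- rise (FDR 0.0049) lost the call with DESeq2 and when the first replicate of either IPO13-/- group was left out (largest FDR 0.19).

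**Figure D2:**
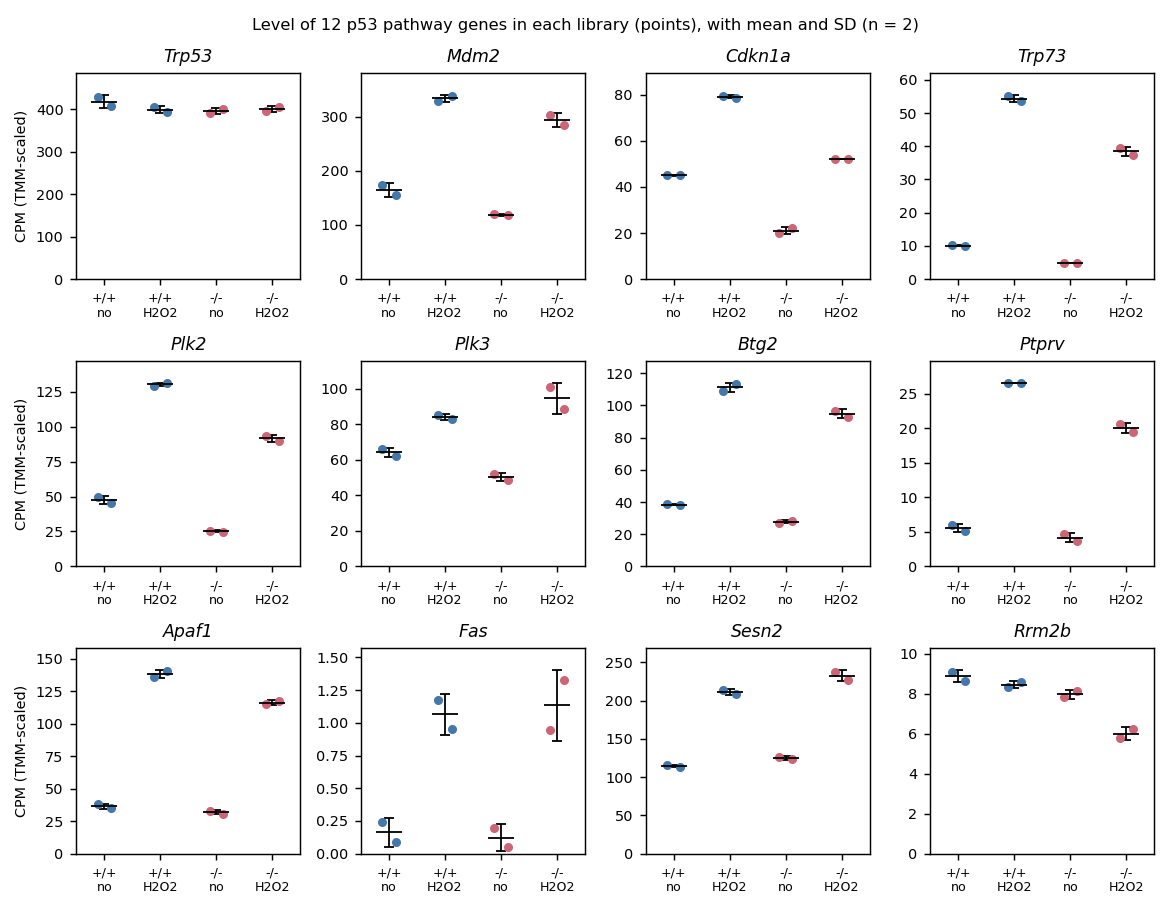
TMM-scaled CPM of 12 of the 36 genes in each library (points, blue IPO13+/+ and red IPO13-/-), with the mean and SD of the 2 libraries of a group in black; each axis starts at 0. *Trp53* is level across groups, *Cdkn1a*, *Trp73*, *Plk2* and *Mdm2* start lower in IPO13-/- cells and rise in both genotypes, and *Rrm2b* is lowest in treated IPO13-/- cells.

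Of the 8 genes of cell death, all rose in IPO13+/+ and 7 in IPO13-/- cells. *Apaf1*, the scaffold of the apoptosome, went from 37.91 and 35.14 to 136.1 and 140.6 CPM in IPO13+/+ libraries, a 3.79-fold rise, and from 33.17 and 30.78 to 115.0 and 117.6 CPM in IPO13-/- libraries, a 3.63-fold rise. The death receptor gene *Fas* had the lowest level of the 36 genes. It was counted 16 and 6 times in untreated and 80 and 66 times in treated IPO13+/+ libraries, and 15 and 3 times in untreated and 61 and 82 times in treated IPO13-/- libraries. One of the untreated IPO13-/- libraries thus stood at the counting floor, and the log2 fold changes of 2.72 ± 0.33 (FDR 3.9e-07) and 3.10 ± 0.35 (FDR 6.5e-08) have the widest errors of the 36 genes. They moved between 2.15 and 3.61 and between 2.52 and 4.50 when single libraries were left out, with both ends set by the untreated libraries of the same genotype (without the second and the first), so that at the low end they lay below those of *Trp73*.

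*Tnfrsf10b*, the mouse TRAIL receptor, rose by 0.65 ± 0.05 and 0.92 ± 0.05 on the log2 scale, and *Eda2r*, a receptor of ectodysplasin A2, by 0.65 ± 0.04 and 0.84 ± 0.04. *Trp53inp1*, a nuclear protein tied to apoptosis and autophagy, rose by 1.09 ± 0.06 and 1.37 ± 0.06, and *Perp*, a membrane protein of apoptosis and cell adhesion, by 0.99 ± 0.05 and 1.25 ± 0.05. *Ei24*, a protein of the endoplasmic reticulum, rose by 0.33 ± 0.04 and 0.53 ± 0.04. *Aen*, a nuclease of apoptosis, passed in IPO13+/+ cells alone, with 0.14 ± 0.05 (FDR 0.02) against 0.07 ± 0.05 (FDR 0.26), but the difference between these did not pass the test (FDR 0.70), and the IPO13+/+ call was lost when either treated IPO13+/+ library was left out (largest FDR 0.14).

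The 5 genes of DNA repair and nucleotide supply behaved less alike, with 2 rising in each genotype. *Ercc5*, the XPG endonuclease of nucleotide excision repair, rose by 0.95 ± 0.05 and 1.09 ± 0.05 on the log2 scale, and *Polk*, a translesion polymerase, by 0.69 ± 0.06 and 0.56 ± 0.06. *Ddb2* and *Xpc*, which recognise damage in the same repair pathway, passed in neither genotype, with log2 fold changes of 0.19 ± 0.07 and 0.10 ± 0.07 for *Ddb2* and 0.01 ± 0.05 and -0.13 ± 0.05 for *Xpc*. *Rrm2b*, a subunit of ribonucleotide reductase, measured 9.106 and 8.664 CPM untreated and 8.334 and 8.594 CPM treated in IPO13+/+, and 7.817 and 8.134 CPM untreated and 5.776 and 6.224 CPM treated in IPO13-/- libraries. Both treated IPO13-/- libraries lay below all others, with a log2 fold change of -0.41 ± 0.08 in IPO13-/- (FDR 0.00013) and -0.07 ± 0.07 in IPO13+/+ cells (FDR 0.56). The difference between these responses did not pass the test (-0.34 ± 0.10, FDR 0.079), but it passed with the replicate block (FDR 0.031), with library totals in place of TMM factors, and without the first untreated IPO13+/+ library.

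Of the 5 genes of metabolism and translation, 4 rose in each genotype. *Sesn2*, a sestrin that restrains mTORC1 and is also induced by stresses other than DNA damage, went from 115.2 and 113.2 to 214.2 and 208.4 CPM in IPO13+/+ and from 126.6 and 123.4 to 237.8 and 227.3 CPM in IPO13-/- libraries, log2 rises of 0.89 ± 0.04 and 0.90 ± 0.04. Its relative *Sesn1* did not pass, with -0.14 ± 0.06 and -0.11 ± 0.06. *Ephx1*, an epoxide hydrolase, rose by 0.92 ± 0.06 and 1.10 ± 0.07, and *Dcxr*, a carbonyl reductase, by 1.02 ± 0.07 and 1.22 ± 0.07. *Rps27l*, a ribosomal protein gene close in sequence to *Rps27*, with which it may share reads, rose by 0.13 ± 0.05 in IPO13+/+ (FDR 0.046) and 0.27 ± 0.05 in IPO13-/- cells (FDR 9.9e-05). The smaller of these calls was lost with limma-voom, with DESeq2, with only the 4 libraries compared and without any of 5 single libraries (largest FDR 0.40).

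The promoters of the genes were searched for a p53 site, which p53 binds as a pair of 10-base decamers. The list was chosen to hold genes that p53 is known to activate. A share of sites above that of all genes therefore follows from how the list was made. Whether p53 drove the rise of these genes was not tested. The site searched was the p53 consensus decamer written as a pair with 0 or 1 base between, with the C at position 4 and the G at position 7 of each decamer required. The consensus reads the same on both strands. RefSeq promoters (GRCm38.p6, 250 bases before to 50 after each start) were held for 28 of the 36 genes, and *Zmat3*, *Trp53inp1*, *Perp*, *Tnfrsf10b*, *Ddb2*, *Xpc*, *Rrm2b* and *Ptprv* had no entry. With at most 1 mismatch, a limit chosen after the counts at several limits were seen, a site lay in 36 of 32851 promoters (0.11%). Counted by gene, it lay in promoters of 35 of 27025 genes (0.13%) and of 4 of the 28 members (14.3%). With at most 2 mismatches it lay in 0.682% of all promoters and, counted by gene, in 0.807% of all genes and in 5 of the 28 members. A match is a description of the sequence and not evidence of binding, and no match says only that these letters are absent from this window. The sites of these 5 genes are shown because they are the nearest matches to a p53 site among the members, with the 20 bases of the site in capitals and 5 bases on each side, 5′ to 3′ along the gene's strand.
Cdkn1a (chr17:29090928-29090947, plus strand, -51 to -32 from the start, 1 mismatch): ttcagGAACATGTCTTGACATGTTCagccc
Ccng1 (chr11:40755462-40755481, minus strand, -195 to -176, 1 mismatch): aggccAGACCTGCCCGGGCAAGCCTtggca
Gtse1 (chr15:85859945-85859964, plus strand, -1 to 19, 1 mismatch): accggGAGCAAGTTGGGGCTTGCCTctgac
Rps27l (chr9:66946296-66946315, plus strand, -117 to -98, 1 mismatch): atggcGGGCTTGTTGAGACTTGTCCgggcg
Trp73 (chr4:154097220-154097239, minus strand, -66 to -47, 2 mismatches): tctccGGGCAAGCTGAGGCCTGCCCtgagt
The coordinates cover the capitals. *Cdkn1a*, *Gtse1*, *Rps27l* and *Trp73* each have 2 RefSeq starts in the set searched. Positions are given from the start whose window held the site, and the window of the other start held no site with at most 2 mismatches. The *Trp73* site lies before a start inside the gene, 43035 bases from the gene's annotated 5′ end, and the *Gtse1* and *Rps27l* sites lie inside the gene as GENCODE annotates it.

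For *Cdkn1a*, the gene with the largest difference between the untreated genotypes, the 250 bases before the same RefSeq start (chr17:29090729-29090978, plus strand) are given whole, with the site again in capitals.
Cdkn1a upstream: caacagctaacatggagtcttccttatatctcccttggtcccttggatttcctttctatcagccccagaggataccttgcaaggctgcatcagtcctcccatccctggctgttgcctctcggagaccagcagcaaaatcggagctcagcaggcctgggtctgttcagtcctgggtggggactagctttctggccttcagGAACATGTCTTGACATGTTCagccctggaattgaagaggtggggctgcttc
The 5 genes with a site did not rise alike. *Trp73* rose 5.40-fold in IPO13+/+ cells and *Rps27l* by a log2 fold change of 0.13, while *Apaf1*, *Btg2* and *Plk2*, which rose 2.74-fold or more in both genotypes, had no such site in their windows.

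Without treatment, most of the genes were lower in IPO13-/- than in IPO13+/+ cells. Of the 36 genes 23 were lower, where 19.4% of all tested genes were, and 3 were higher (*Sesn1*, *Sesn2* and *Ddb2*), where 18.7% of all genes were. *Cdkn1a* and *Trp73* were lower by at least 2-fold, as were 1.84% of all genes. The median log2 difference was -0.28 over the 36 genes and 0 over all genes, and 28.4% of the genes above 1 CPM were lower. The summed stem cell markers were also lower in the IPO13-/- libraries, as given above. Of the 10 markers 5 were lower in untreated IPO13-/- cells, most of all *Dppa5a* (1942 against 1294 CPM) and *Tfcp2l1* (1075 against 778.9 CPM), 2 were higher (*Nanog* and *Utf1*), and the other 3, *Sox2* among them, did not pass. Their part in the difference of the p53 genes was not tested.

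**Figure D3:**
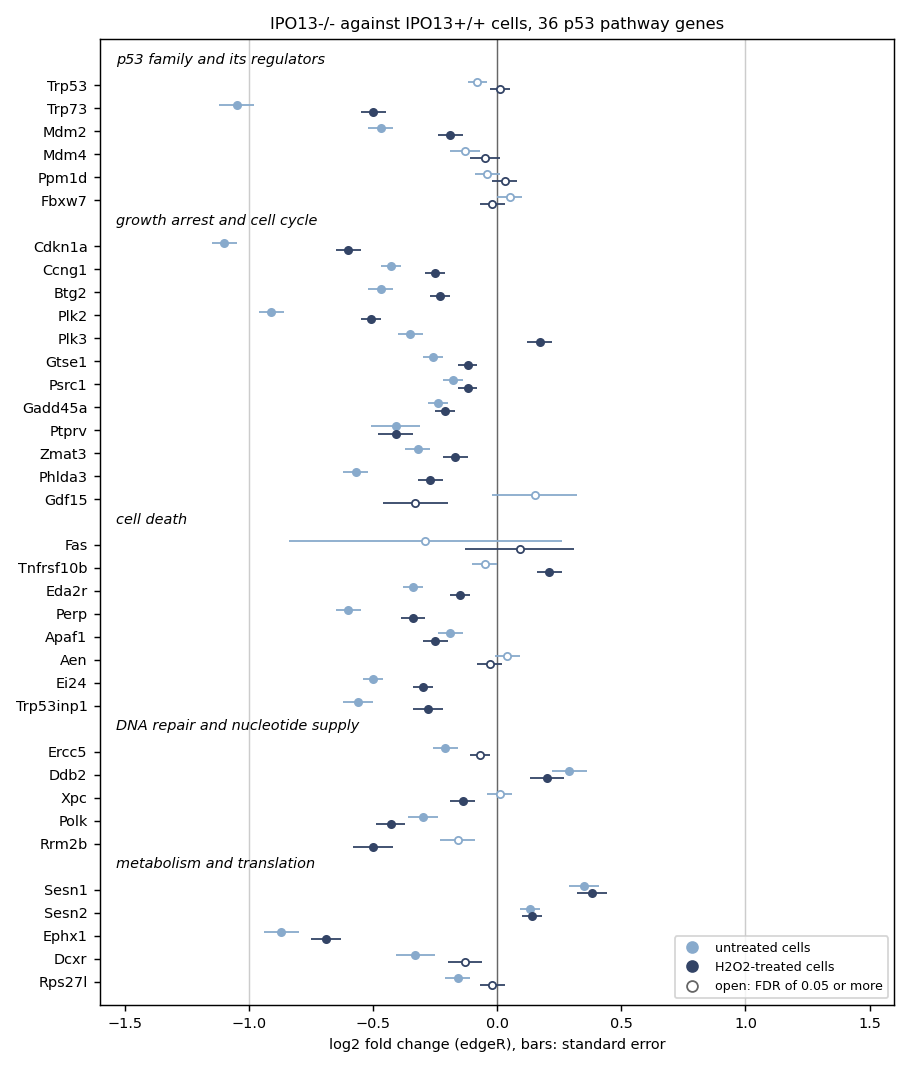
Log2 fold change (edgeR, bars are standard errors) of each of the 36 genes in IPO13-/- against IPO13+/+ cells, untreated (light) and H2O2-treated (dark), grouped by role; open points have an FDR of 0.05 or more. Most light points lie left of 0, with *Cdkn1a* at -1.10 and *Trp73* at -1.05, and the dark points of these genes lie nearer to 0, with *Plk3* crossing it.

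The 4 largest differences in untreated cells were those of *Cdkn1a*, *Trp73*, *Plk2* and *Ephx1*. Of the 12 genes of growth arrest and the cell cycle 11 were lower, and *Gdf15* did not pass. *Cdkn1a* was 2.14-fold lower (log2 -1.10 ± 0.05, FDR 1.3e-15), *Plk2* 1.88-fold lower (-0.91 ± 0.05, FDR 3.7e-14) and *Phlda3* lower by a log2 difference of -0.57 ± 0.05. The log2 differences of the other 8 lay between -0.47 for *Btg2* and -0.18 for *Psrc1*. Among the p53 family and its regulators 2 of 6 were lower, *Trp73* by 2.08-fold (log2 -1.05 ± 0.07, FDR 3.9e-12) and *Mdm2* by 1.38-fold (log2 -0.47 ± 0.05). In so small a group, 2 of 6 is near the 28.4% of genes above 1 CPM that were lower. *Trp53* (-0.08 ± 0.04), *Mdm4* (-0.13 ± 0.06), *Ppm1d* (-0.04 ± 0.05) and *Fbxw7* (0.05 ± 0.05) did not pass.

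Of the cell death genes 5 of 8 were lower, *Perp* by a log2 difference of -0.60 ± 0.05, *Trp53inp1* by -0.56 ± 0.06, *Ei24* by -0.50 ± 0.04, *Eda2r* by -0.34 ± 0.04 and *Apaf1* by -0.19 ± 0.05. *Fas*, *Tnfrsf10b* and *Aen* did not pass. Of the repair genes *Ercc5* (-0.21 ± 0.05) and *Polk* (-0.30 ± 0.06) were lower and *Ddb2* was higher (0.29 ± 0.07). In metabolism and translation *Ephx1*, at 11.98 and 11.72 CPM in IPO13+/+ and 6.14 and 6.894 CPM in IPO13-/- libraries, was 1.82-fold lower, *Dcxr* (-0.33 ± 0.08) and *Rps27l* (-0.16 ± 0.05) were lower, and *Sesn1* (0.35 ± 0.06) and *Sesn2* (0.13 ± 0.04) were higher. Among all genes above 1 CPM, 28.4% were lower and 25.1% were higher. The counts in these 2 groups of 5 genes are too small to be set apart from those shares. The calls of *Apaf1*, *Rps27l*, *Dcxr*, *Ptprv* and *Sesn2* in untreated cells were each lost when 1 to 3 single libraries were left out.

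After H2O2, the genotypes stood closer. Of the 36 genes 21 were lower in treated IPO13-/- than in treated IPO13+/+ cells, where 17.5% of all genes were, and 5 were higher (*Tnfrsf10b*, *Plk3*, *Sesn1*, *Sesn2* and *Ddb2*), where 19.1% of all genes were. The median log2 difference was -0.16 over the 36 genes. Of the 23 genes lower before treatment 19 were also lower after it, 3 no longer passed (*Ercc5*, *Dcxr* and *Rps27l*), and *Plk3* was higher, by 0.17 ± 0.05 (FDR 0.011). How many of all tested genes were lower both before and after treatment was not counted, so these numbers have no background. *Xpc* and *Rrm2b* were lower in treated cells only by the test, at -0.14 ± 0.05 (FDR 0.048) and -0.50 ± 0.08 (FDR 6.1e-06), and for neither did the difference between the responses pass. *Ephx1* at -0.69 ± 0.06, *Cdkn1a* at -0.60 ± 0.05, *Plk2* at -0.51 ± 0.04 and *Trp73* at -0.50 ± 0.05 were the other large log2 differences. Without the second treated IPO13+/+ library or the first treated IPO13-/- library, 2 genes were higher in place of 5, and the *Plk3* call was lost in both cases (largest FDR 0.40). The calls of *Ddb2*, *Gtse1*, *Psrc1*, *Xpc*, *Eda2r*, *Zmat3*, *Mdm2* and *Sesn2* in treated cells were each lost without 1 to 5 single libraries.

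Whether H2O2 moved a gene by a different factor in the 2 genotypes was tested as an interaction on the log2 scale, in which a positive value is a larger rise in IPO13-/- cells. The untreated libraries enter both this test and the comparison of untreated cells, so their values are not independent and no overlap between them is given. Of the 36 genes 10 had a larger rise in IPO13-/- cells, where 2.01% of all genes did, and none had a smaller one by edgeR, limma-voom or DESeq2, where 0.705% of all genes did by edgeR. At an unadjusted p under 0.05, 2 genes (*Gdf15* and *Rrm2b*) had negative values. The largest values were 0.55 ± 0.09 for *Trp73* (FDR 0.0003), 0.52 ± 0.08 for *Plk3* (FDR 9.1e-05), 0.50 ± 0.07 for *Cdkn1a* (FDR 7.1e-05) and 0.40 ± 0.07 for *Plk2* (FDR 0.00055). The other 6 lay between 0.25 and 0.31, for *Phlda3*, *Mdm2*, *Trp53inp1*, *Perp*, *Tnfrsf10b* and *Btg2*. Among genes above 1 CPM, 3.15% had a larger rise.

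The count of 10 depended on the tool and on single libraries. Limma-voom called 4 of the genes and DESeq2 6, and the edgeR count fell to 2 without the first and 3 without the second untreated IPO13-/- library, to 4 without either treated IPO13+/+ library, and to 6 and 5 without the first and second treated IPO13-/- library. *Cdkn1a* and *Plk3* passed under every alternative and without any single library (largest FDR 0.034 and 0.046). *Trp73* was lost only without the first untreated IPO13-/- library (FDR 0.058), and *Plk2* only without the first or the second of them (largest FDR 0.058).

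In CPM, the absolute rise of the 10 genes was not uniformly larger in IPO13-/- cells. It was larger in IPO13-/- cells for 3 of them, *Plk3*, *Tnfrsf10b* and *Mdm2*, and smaller for 7. *Plk3* rose by 20 ± 3.1 CPM in IPO13+/+ and 44.4 ± 9 CPM in IPO13-/- cells, where the error combines the SDs of both groups. For *Mdm2* (169 ± 14 and 175 ± 13 CPM), *Trp53inp1*, *Phlda3* and *Perp* the 2 rises differed by less than the larger of their errors. *Cdkn1a* rose by 34 ± 0.7 and 31 ± 1.5 CPM, *Trp73* by 44.3 ± 1 and 33.6 ± 1.4 CPM and *Plk2* by 82.8 ± 2.9 and 66.4 ± 2.6 CPM. For these 3 genes the factor was larger in IPO13-/- cells and the gain in CPM was not. The level of *Cdkn1a* in IPO13-/- cells was 46.8% of that in IPO13+/+ cells before H2O2 and 65.8% after it, and that of *Trp73* 48.2% and 70.7%.

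**Figure D4:**
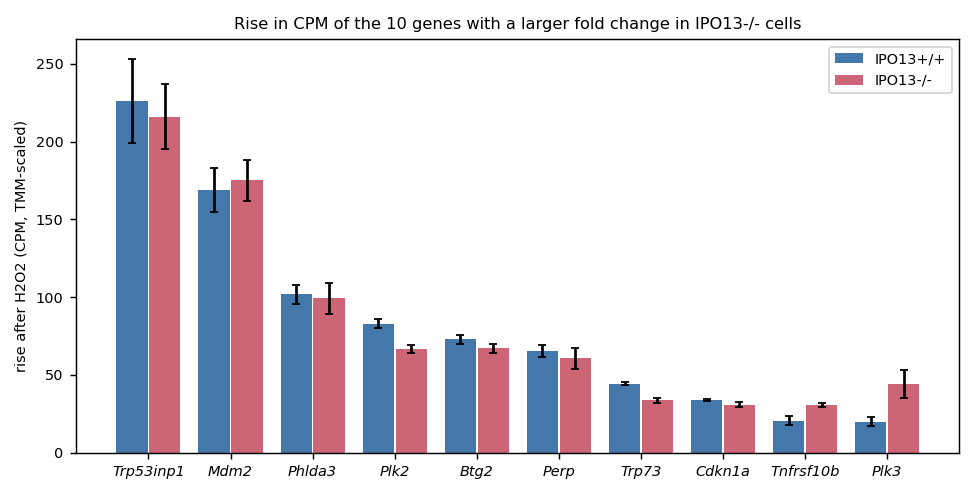
Rise in TMM-scaled CPM after H2O2 (treated mean minus untreated mean, bars combine the SDs of the 2 groups) in IPO13+/+ (blue) and IPO13-/- (red) cells for the 10 genes with a larger fold change in IPO13-/- cells. The red bar is clearly higher for *Plk3* and *Tnfrsf10b*, lower for *Trp73* and *Plk2*, and within the error bars for *Mdm2*, *Trp53inp1*, *Phlda3* and *Perp*.

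Other genes of the pathway were counted from 3 lists for comparison. The shares of all genes beside these counts include genes with few counts. Among genes above a mean of 1 CPM, 15.1% rose and 21.4% fell after H2O2 in IPO13+/+ cells. In IPO13-/- cells 20.8% rose and 21.5% fell. Between genotypes, 25.1% of these genes were higher and 28.4% lower in untreated IPO13-/- cells, and 26.5% and 24.4% in treated ones. Of 37 tested further p53 targets 22 rose (59.5%, against 11.5% of all genes) and 3 fell (8.11% against 13.8%) after H2O2 in IPO13+/+ cells. In IPO13-/- cells 24 rose (64.9% against 14.9%) and 1 fell (2.70% against 14.4%). Without treatment 16 were lower in IPO13-/- cells (43.2% against 19.4%) and 6 were higher (16.2%, near the 18.7% of all genes). Their median log2 fold changes after H2O2 were 0.25 and 0.35, below those of the 36 genes. *Tap1*, a peptide transporter of antigen presentation, rose from 1.684 and 2.041 to 13.58 and 13.17 CPM in IPO13+/+ and from 1.241 and 1.305 to 9.498 and 10.6 CPM in IPO13-/- libraries, log2 rises of 2.84 ± 0.09 and 2.98 ± 0.11. *Atf3*, a stress transcription factor, rose by 2.05 ± 0.09 and 1.63 ± 0.09, *Hic1*, a transcriptional repressor, by 1.72 ± 0.15 and 1.21 ± 0.14, and *Rprm*, reprimo, by 1.10 ± 0.11 and 1.44 ± 0.11. *Btg1*, the relative of *Btg2*, was lower in untreated IPO13-/- cells (-0.50 ± 0.05) and rose more in them (interaction 0.52 ± 0.07, FDR 7.3e-05), with treated levels of 79.55 ± 5.44 CPM in IPO13-/- and 78.1 ± 1.8 CPM in IPO13+/+ cells. Its interaction was lost without the first untreated IPO13-/- library (FDR 0.052). The ferrireductase gene *Steap3* went the other way, at 3.234 and 3.369 CPM in untreated IPO13+/+ and 11.99 and 12.53 CPM in untreated IPO13-/- libraries, a log2 difference of 1.89 ± 0.08.

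Of 30 genes for kinases, ligases and cofactors that regulate p53, 4 rose (13.3%, near the 11.5% of all genes) and 9 fell (30%, against 13.8%) in IPO13+/+ cells. In IPO13-/- cells 6 rose (20%, against 14.9%) and 9 fell (30%, against 14.4%). The 20% is near the 20.8% of genes above 1 CPM that rose in IPO13-/- cells. The 30% compares with 21.4% and 21.5% of genes above 1 CPM that fell in IPO13+/+ and IPO13-/- cells. *Ppp1r13l*, which encodes the p53 inhibitor iASPP, rose by 1.20 ± 0.06 in IPO13+/+ and 0.75 ± 0.07 in IPO13-/- cells, a smaller rise in the latter (interaction -0.45 ± 0.09, FDR 0.0038), and this was lost without the first untreated IPO13-/- library (FDR 0.11). The deacetylase gene *Sirt1* had an interaction of 0.35 ± 0.06 (FDR 0.00091) and *Trp53rk*, a p53-related kinase, one of -0.36 ± 0.10 (FDR 0.036). The *Sirt1* call was lost without either untreated IPO13-/- library (largest FDR 0.098), and the *Trp53rk* call with limma-voom, with DESeq2 and without any of 6 single libraries, which are all but the untreated IPO13+/+ ones (largest FDR 0.23). Of 16 cell cycle genes that the DREAM repressor complex is known to lower when p21 is high, 12 fell in IPO13+/+ cells (75%, against 13.8% of all genes), and 7 fell in IPO13-/- cells (43.8%, against 14.4%) and 1 rose, with median log2 fold changes of -0.17 and -0.08. Between genotypes they went both ways in untreated cells, where 6 were higher in IPO13-/- cells (37.5%, against 18.7%) and 2 lower (12.5%, against 19.4%), and in treated cells 9 were higher (56.2%, against 19.1%) and 1 lower (6.25%, against 17.5%). Among those higher in both, named after their values were seen, *Aurka*, a mitotic kinase, differed by log2 values of 0.37 ± 0.04 untreated and 0.44 ± 0.04 treated, and *Bub1*, a kinase of the spindle checkpoint, by 0.35 ± 0.04 and 0.42 ± 0.04. *Ccnb1*, cyclin B1, was the one of them whose response passed the test of a difference between the genotypes (interaction 0.22 ± 0.06, FDR 0.031), falling by 0.20 on the log2 scale in IPO13+/+ cells and not passing in IPO13-/- cells (0.02 ± 0.04). That call was lost with limma-voom, DESeq2, library totals and filterByExpr, and without any of the 6 libraries other than the untreated IPO13+/+ ones (largest FDR 0.46).

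The counting setting for strand was not given in the sources used here, and 12 of the 36 genes overlap a gene on the opposite strand. The overlap is of whole genes, introns included, and overlap of exons was not examined. Where exons do overlap, reads of the pair may not be told apart. Among the 12 genes are *Cdkn1a*, *Trp73*, *Plk3*, *Ddb2*, *Gadd45a*, *Mdm4* and *Apaf1*. *Mdm2* and *Plk2* overlap none.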

How the data were processed

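Per the labels and the submitters' processing notes, RNA of 8 libraries was sequenced, demultiplexed with bcl2fastq, aligned to mm10 with STAR 2.3.1 and counted on genes with HTSeq. The annotation and strand setting are not given in the sources used here. The authors deposited raw read counts per gene symbol and CPM values, which are the counts divided by the library total. The deposited CPM served only as a check, and differed by at most 5e-04 CPM from those computed here.

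The 19424 genes counted at least 1 time in some library entered 1 quasi-likelihood model of 4 groups with TMM scaling (edgeR 4.0.16, R 4.3.3), with Benjamini-Hochberg adjustment over all genes and a threshold of FDR 0.05, with a 2-fold change as a second rule. Each SE is the log2 fold change over the root of its F value. The common coefficient of variation beyond counting error, as edgeR estimates it, was 3.36%, and it may be technical. Gene positions, exon lengths and overlaps were taken from GENCODE M21 (GRCm38) and promoters from RefSeq (GRCm38.p6). The alternatives were limma-voom (limma 3.58.1), DESeq2 1.42.0, RLE factors, library totals without factors, filterByExpr, a replicate block, only the 4 libraries compared, and leaving out each library. The scripts were tested on simulated data.

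The members, the 3 lists and the marker lists were chosen with earlier results of these data known. All 36 members are named. A gene of the lists is named where it changed at least 2-fold in a pairwise comparison or had an interaction, up to 6 per list. The 4 rows whose symbol had been turned into a date and was not unique were kept as separate rows, and none of them is a gene named here. Of 38 further p53 targets, 37 were tested. Counting intervals cover counting error only.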

Additional observations from a re-analysis of the deposited data

Results flagged for a closer look

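The results listed here are genes whose response to H2O2 differed between IPO13+/+ and IPO13-/- cells by a test of the difference itself, edgeR's interaction term with an FDR under 0.05. Among the 36 genes the log2 values were 0.55 for *Trp73*, 0.52 for *Plk3*, 0.50 for *Cdkn1a*, 0.40 for *Plk2*, 0.31 for *Phlda3*, 0.28 for *Mdm2*, 0.28 for *Trp53inp1*, 0.26 for *Perp*, 0.26 for *Tnfrsf10b* and 0.25 for *Btg2*, all positive and so a larger fold change in IPO13-/- cells. Among the further genes of the pathway the log2 values were 0.52 for *Btg1*, 0.35 for *Sirt1* and 0.22 for *Ccnb1*, and -0.36 for *Trp53rk* and -0.45 for *Ppp1r13l*, for which the fold change was smaller or less positive in IPO13-/- cells. Another 3 of the further p53 targets passed this test and lie outside the limit of 6 named genes per list. Their log2 values were 0.28 for *Bbc3*, 0.26 for *Ak1* and 0.25 for *Sfn*, and they are named here after these values were seen. The calls of these 3 were not followed under the alternatives or without single libraries. Of the 37 tested further p53 targets 4 had a positive interaction (10.8%, against 2.01% of all genes) and 0 a negative one (against 0.705%). Groups of 2 libraries are too small for a test of single libraries that stand apart.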

How the results depend on the processing

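No value of the 36 genes or of the list genes named by the rule above that passed a test changed sign under any alternative or without any single library. Genes named outside that rule, *Aurka*, *Bub1*, *Bbc3*, *Ak1* and *Sfn* among them, were not followed under the alternatives. With library totals without factors, 2 genes in place of 1 fell in IPO13-/- cells after H2O2, 5 in place of 3 were higher and 1 in place of 2 was 2-fold lower in untreated IPO13-/- cells, and in the interaction 5 in place of 10 were higher and 1 in place of 0 was lower. The interaction count of 10 was 4 with limma-voom, 6 with DESeq2 and 5 with filterByExpr. The causes were not tested. With the replicate block, 2 genes fell in IPO13-/- cells, the interaction called 13 higher and 1 lower (*Rrm2b*), and no other count moved by over 1.5 times. The labels do not say that equal replicate numbers mark pairs, so the numbers are not taken as pairs. Deviations between replicates were compared over 9907 genes. Those of untreated IPO13+/+ correlated at 0.57 with treated and 0.32 with untreated IPO13-/- libraries, and those of the 2 IPO13-/- groups at 0.28. Those of treated IPO13+/+ libraries correlated with the other groups between -0.063 and 0.0034. The source of the shared deviations was not tested. Leaving out single libraries, which assumes that the lone library of a group varies like the others, gave 1 to 2 genes that fell in IPO13-/- cells, 2 to 5 that were higher in treated IPO13-/- cells, and 2 to 14 higher and 0 to 1 lower in the interaction. Depth limits *Fas* and *Gdf15*, and for *Fas* 1 untreated library held 3 counts. Replicates differed by more than counting error, with a chi-square per gene of 2.26 to 15.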
